A study of Homo sapiens with 24 samples.

Results

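OG-seq profiles of *OGG1*-deficient and *MUTYH*-deficient HAP1 cells were compared directly with each other, without the wildtype (WT) as a middle term. HAP1 is a near-haploid human cell line in culture. The cells labelled OGG1-/ lack the glycosylase OGG1 and those labelled MUTYH-/ lack MUTYH. Of the 24 samples of the series, 12 belong to these genotypes, which are 3 pull-down and 3 input samples of each, and they are held in 6 of the 12 columns of the deposited table, the others being WT and the double knockout (DKO). The members were chosen by genotype label and not by a measured value. Cells of all genotypes were kept in the same medium, no treatment is given in the labels, and butylated hydroxytoluene and deferoxamine were present in every DNA isolation. According to the sample titles, 2 of the 3 pull-down samples of a knockout came from 1 clone and 1 from another clone. The columns are not tied to clones or experiments here, so the 3 columns of a genotype were taken as replicates. Because 2 of them share a clone, they are not 3 independent clones, and the tests do not account for this. The p-values measure the spread between these columns, which includes differences between clones.

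8-oxoguanine (OG) is the main oxidation product of guanine. OGG1 starts base excision repair by removing OG that is paired with cytosine, whereas MUTYH removes the adenine that replication has placed opposite OG and leaves the OG itself in the DNA. Loss of OGG1 thus removes an enzyme that excises OG, and loss of MUTYH removes one that prevents the mutation OG would cause. In OG-seq, OG in fragmented DNA is linked to biotin, pulled down on streptavidin and sequenced beside input DNA. Guanines that are followed by other guanines are oxidized most readily, and CpG-rich gene starts and sequences that can fold into G-quadruplexes (G4) are rich in them.

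The *OGG1* knockout was made with Cas9 and a guide RNA whose target was located here in GRCh38. It lies at chr3:9750308-9750330 on the minus strand, in the coding part of exon 1 of *OGG1* (ENSG00000114026.22), and had 1 exact match with a PAM in the genome. The sequence of the target is shown because it defines the genotype, 5′ to 3′ with the PAM in capitals. Directly upstream of the gene lies a stretch rich in CpGs, shown because CpG-rich sequence is the class of bins with the widest gap between the knockouts below. It is from the RefSeq promoter table (GRCh38.p14), chr3:9749702-9749941 on the plus strand, with CpG dinucleotides in capitals.
*OGG1* guide target: gtacgatgccccatgcgcctGGG
*OGG1* upstream: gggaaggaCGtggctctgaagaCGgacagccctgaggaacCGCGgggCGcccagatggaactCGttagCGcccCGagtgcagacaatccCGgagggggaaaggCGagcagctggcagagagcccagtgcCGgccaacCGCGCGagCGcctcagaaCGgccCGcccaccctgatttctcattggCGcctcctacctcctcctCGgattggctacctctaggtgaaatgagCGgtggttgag
This stretch of 240 bases holds 20 CpGs, against a median of 10 in the same stretch of 27305 promoters, and 29.9 % of these hold at least as many.

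The 1 kb bin with the guide target (chromosome 3, 9750001 to 9751000) had relative OG levels of 1.43, 1.65 and 1.94 in OGG1-/ and of 1.66, 2.71 and 3.16 in MUTYH-/. The relative OG level is the deposited value, which is OG reads minus scaled input reads, divided by the mean of its column over all bins. The lowest MUTYH-/ column lay within the OGG1-/ columns, and 1 kb values cannot show a deletion of a few bases, so the labels could not be checked at the edited site.

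The columns differed in depth. A bin of 1 kb held on average 35.4, 31.1 and 39.1 OG reads in OGG1-/ and 38.7, 26.6 and 29.9 in MUTYH-/, recovered from the deposited values over 2835235 bins. The input was deeper in all 3 OGG1-/ columns (34.5 to 35.8 reads per bin) than in the MUTYH-/ columns (27.7 to 31.9). The counting error of a column was 0.811 of the column mean in a typical bin and 0.0804 in a typical window of 100 kb. Duplicate molecules are not told apart by these numbers, which cover counting error only.

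The mean deposited value over all bins was 9.12, 8.84 and 9.71 OG reads in OGG1-/ and 9.64, 7.80 and 8.26 in MUTYH-/. The means were 9.23 ± 0.445 (SD, n = 3) and 8.57 ± 0.960, and the groups overlapped (difference 0.658, exact two-sided permutation test, p = 0.3). The difference was 1.197 without column 1 of MUTYH-/ and 0.275 without its column 2. Divided by the OG reads per bin of each column, it was reversed, at -0.00929 (exact permutation p = 0.6). With 3 columns against 3, the smallest p this test allows is 0.1. The share of bins with a value below 0, where scaled input exceeds the OG reads, was 23.2 ± 0.668 % in OGG1-/ and 24.1 ± 0.753 % in MUTYH-/ (exact permutation p = 0.2). WT columns had mean values from 7.04 to 8.34 and DKO columns from 8.34 to 9.91. A difference in the mean deposited value between the knockouts was thus not found. This value is in reads and depends on the depth of a column, so it cannot show whether the overall amount of OG differed. Each column was divided by its own mean for all further comparisons, which removes any difference in this mean.

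No 100 kb window and no 1 kb bin differed between OGG1-/ and MUTYH-/ after adjustment. Of 28395 windows with at least 50 bins, 0 (0 %) had an adjusted p under 0.05 by limma with Benjamini-Hochberg adjustment, and the smallest adjusted p was 0.206. Without adjustment, 466 windows were higher and 688 lower in OGG1-/ at a p under 0.05. At a p of at most 0.01, 47 windows (0.166 %) were higher and 133 (0.468 %) lower, and centering each column within strata of GC content turned this split into 129 and 117, while the log2 scale gave 90 and 95. All 3 columns of OGG1-/ lay above all 3 of MUTYH-/ in 1133 windows (3.99 %) and below them in 1389 (4.89 %). In the 2804774 bins tested, 0 (0 %) passed the adjusted threshold. In these bins, 70437 were higher and 67154 lower at an unadjusted limma p under 0.05, and 13905 (0.496 %) were higher and 12184 (0.434 %) lower at a p of at most 0.01. Columns did not overlap in 5.04 % of the bins with OGG1-/ higher and in 4.96 % with OGG1-/ lower.

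The size of the differences between windows was small. The median absolute difference was 0.0874 of the column mean, 95 % of the windows differed by less than 0.268, and 39 windows by more than 0.5. The typical window had a 95 % interval of ±0.282 around its difference, so a difference of that order in a single window was not detectable with these columns. The typical SD between columns of 1 genotype was 0.149 in a window and 1.18 in a bin. In the plot of window means, the windows lie near the line of equal level, more of them below it at low levels and above it at high levels, and the group of windows farthest below it has a step in the input, described further on. Of the 39 windows that differed by more than 0.5, 13 had such a step and 26 did not.

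**Figure D1:**
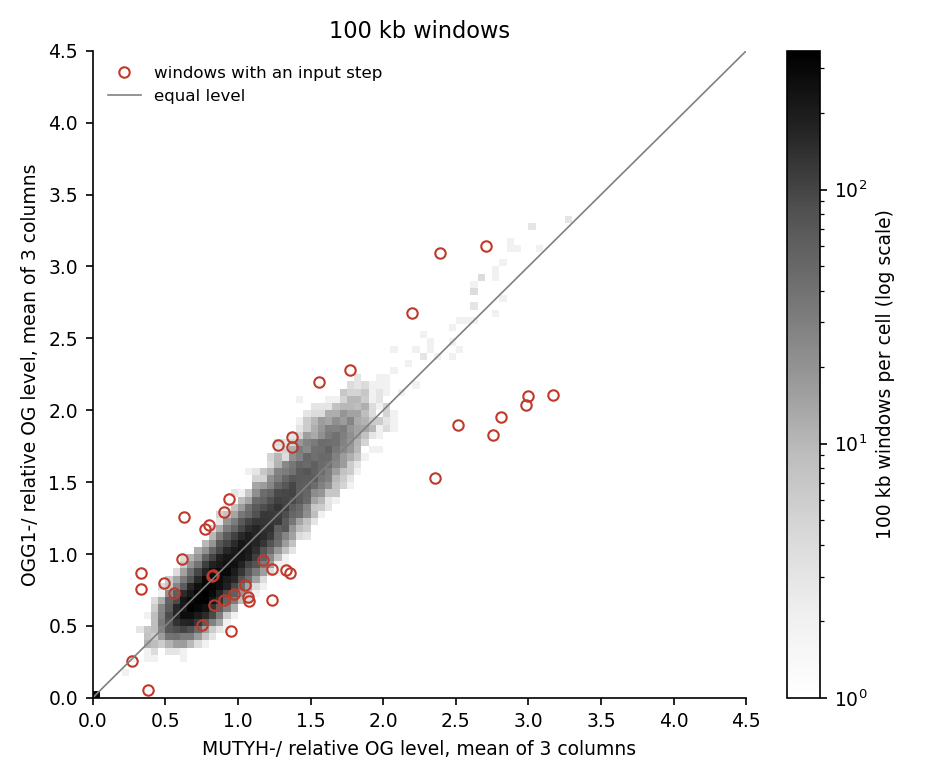
Mean relative OG level of MUTYH-/ (x axis) and OGG1-/ (y axis) in 100 kb windows, where 1 is the mean of a column, each over 3 columns. The grey scale counts windows on a log scale and the line marks equal level; red circles are the 42 windows where the input of a column departs from the others, among them 7 neighbouring windows near the end of chromosome 19 with MUTYH-/ higher by 0.614 to 1.07 (28393 windows are drawn).

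The likeness of columns within a knockout overlapped that between the knockouts. Over the 100 kb windows, Pearson's r between columns lay from 0.859 to 0.885 within OGG1-/, from 0.768 to 0.823 within MUTYH-/ and from 0.803 to 0.913 between them. In 1 kb bins r was 0.128 to 0.163 within OGG1-/, 0.0789 to 0.122 within MUTYH-/ and 0.0951 to 0.203 between them. The highest r in windows, as in bins, was thus found between columns of different genotypes, and the lowest within MUTYH-/. These are descriptions across positions of the genome that share base composition and are not independent.

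The relation of the OG level to base composition set the columns apart. Bins were ranked on GC and divided into 10 classes of equal size. In the class with the least GC (at most 32.4 %), the relative OG level was 0.469, 0.271 and 0.400 in OGG1-/ and 0.313, 0.594 and 0.599 in MUTYH-/. In the class with the most GC (at least 50.6 %), it was 1.70, 1.92 and 1.76 in OGG1-/ and 1.92, 1.42 and 1.49 in MUTYH-/. Column 1 of MUTYH-/ and column 2 of OGG1-/ had the steepest course from AT-rich to GC-rich bins, and columns 2 and 3 of MUTYH-/ the flattest. The difference of OGG1-/ minus MUTYH-/ was -0.122 in the lowest class and 0.180 in the highest, and it increased with every class between them. Because column 1 of MUTYH-/ lay with the OGG1-/ columns, the groups overlapped in each class (exact permutation p from 0.3 to 0.6, adjusted p = 0.6 for all 10 classes). Without column 1 of MUTYH-/, the differences were -0.217 and 0.336, without its column 2 -0.0760 and 0.0836, without its column 3 -0.0734 and 0.121, and without column 2 of OGG1-/ -0.0674 and 0.117.

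Expressed as a slope over the 100 kb windows, the relative OG level increased by 0.593, 0.810 and 0.627 per 10 percentage points of GC in the OGG1-/ columns and by 0.796, 0.441 and 0.426 in the MUTYH-/ columns (exact permutation p = 0.5). WT slopes lay between 0.517 and 0.578 and DKO slopes between 0.332 and 0.719. All 3 OGG1-/ columns thus lay above the range of WT. Of MUTYH-/, column 1 lay above it and columns 2 and 3 below it. The same spread was present in the OG reads before subtraction, which in the highest GC class were 1.28, 1.32 and 1.24 times the column mean in OGG1-/ and 1.31, 1.16 and 1.19 in MUTYH-/. The input reads of that class were 1.14, 1.09 and 1.06 in OGG1-/ and 1.10, 1.05 and 1.07 in MUTYH-/. The part of library preparation in this GC dependence was not tested.

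**Figure D2:**
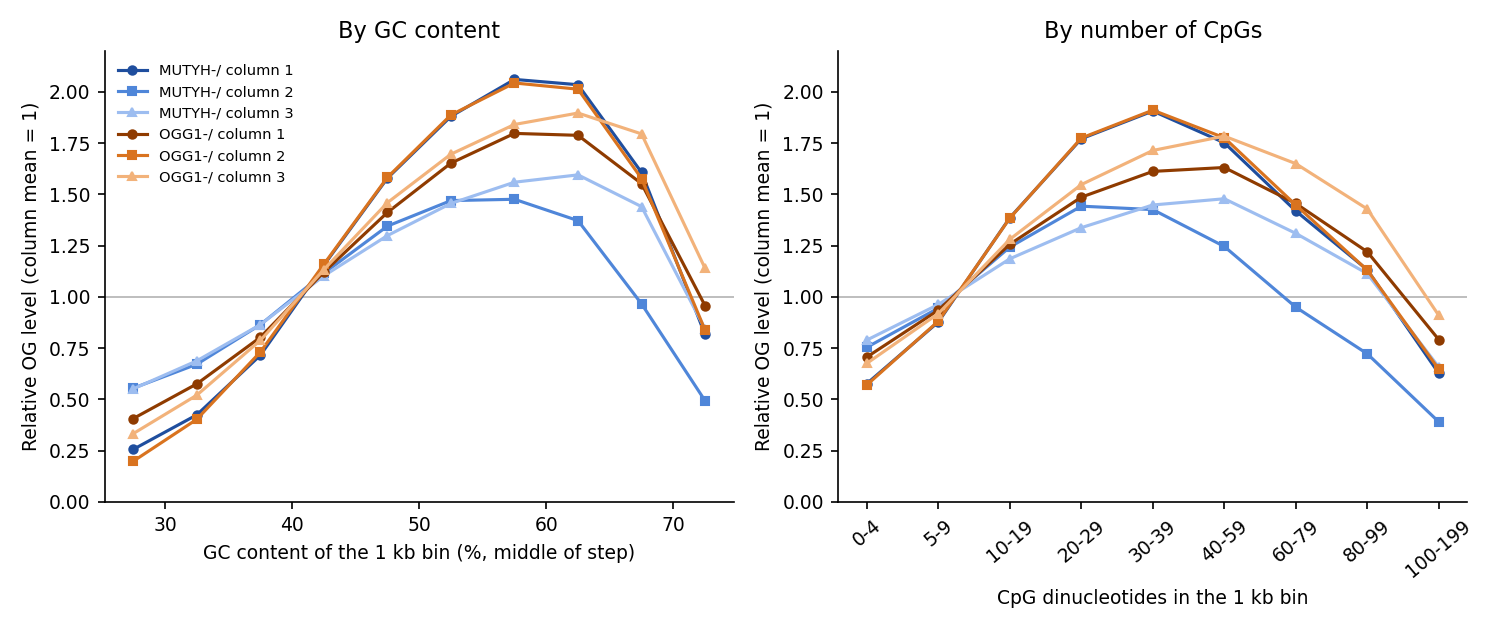
Relative OG level (y axis, 1 is the mean of a column) of 1 kb bins by GC content in steps of 5 % (left) and by the number of CpGs in the bin (right), 1 line per column, MUTYH-/ in blue and OGG1-/ in orange. Column 1 of MUTYH-/ and column 2 of OGG1-/ nearly coincide and peak at 2.06 and 2.04 between 55 and 60 % GC, while column 2 of MUTYH-/ falls to 0.390 and column 3 of OGG1-/ to 0.909 in bins with 100 or more CpGs.

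Of 7 classes of bins compared, those at gene starts and in CpG-rich sequence had the largest differences between the knockouts. In the 18287 bins that hold the start of a protein-coding gene, the relative OG level was 1.32, 1.35 and 1.42 in OGG1-/ and 1.31, 1.02 and 1.21 in MUTYH-/. All 3 OGG1-/ columns lay above all 3 MUTYH-/ columns, but the lowest OGG1-/ column exceeded the highest MUTYH-/ column by little. The means were 1.36 ± 0.0535 (SD, n = 3) and 1.18 ± 0.146, and the difference of 0.183 had the smallest exact permutation p the design allows (p = 0.1, adjusted over 7 classes p = 0.35). WT columns lay between 1.28 and 1.51 and DKO columns between 0.837 and 1.30, so that OGG1-/ was within the range of WT and MUTYH-/ reached below it. When columns were divided by their median in place of their mean, the difference was 0.193 and the columns overlapped (exact permutation p = 0.2).

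CpG-rich bins gave the same order with a wider gap. These were the 22875 bins (0.807 % of all) with at least 55 % GC and a ratio of observed to expected CpGs of at least 0.6. Their relative OG level was 1.29, 1.26 and 1.47 in OGG1-/ and 1.24, 0.831 and 1.16 in MUTYH-/. The difference was 0.264 and the groups did not overlap (exact permutation p = 0.1, adjusted p = 0.35). WT had 1.31 to 1.63, above all MUTYH-/ columns and 2 of the OGG1-/ columns, and DKO 0.540 to 1.21. Without column 2 of MUTYH-/, the differences were 0.104 at gene starts and 0.141 in CpG-rich bins. When gene starts were divided by this criterion, a split made after the values were seen, the 8259 CpG-rich starts differed by 0.254 without overlap and the 10028 other starts by 0.124 with overlap (exact permutation p = 0.1 and 0.2).

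This separation went with the GC dependence of the columns. After each column was centered within 20 strata of GC content, the difference at gene starts was 0.0291 (exact permutation p = 0.8) and that in CpG-rich bins 0.0508 (p = 0.7), with overlap in both. Before input subtraction, the OG reads at gene starts were 1.00, 0.990 and 0.978 times the column mean in OGG1-/ and 0.957, 0.864 and 0.925 in MUTYH-/, again without overlap (exact permutation p = 0.1). The input reads at the same bins were 0.891, 0.848 and 0.831 in OGG1-/ and 0.839, 0.798 and 0.816 in MUTYH-/ (exact permutation p = 0.2). Both libraries of OGG1-/ thus held on average more reads from gene starts than those of MUTYH-/. Whether the input moves the OG value there was not tested.

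The separation was narrow in space. In profiles around 19632 gene starts, the level of the bin with the start differed by 0.186 between the genotypes and that of the next bin downstream by 0.133, while 10 kb upstream the difference was 0.0579 and 10 kb downstream 0.0464. Only the bin of the start itself did not overlap in this profile from 10 kb upstream to 10 kb downstream. The mean GC content was 44.9 % 10 kb upstream, 57.0 % at the start, 51.8 % in the next bin and 45.2 % 10 kb downstream. The profile was not centered for GC, so it cannot tell distance from the start apart from GC content. The level was 1.46, 1.26 and 1.28 in MUTYH-/ in the bin before the start and 1.32, 1.03 and 1.22 at the start. In OGG1-/ it was 1.36, 1.49 and 1.39 before the start and 1.33, 1.36 and 1.44 at the start. It was thus lower at the start than in the bin before it in all columns except column 3 of OGG1-/.

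The other classes of bins overlapped between the knockouts. Bins with a G4 motif (at least 4 runs of 3 or more G, or of C, with 1 to 7 bases between them, 9.69 % of all bins) had 1.26, 1.34 and 1.31 in OGG1-/ and 1.33, 1.12 and 1.19 in MUTYH-/ (difference 0.0889, exact permutation p = 0.3). This difference was 0.147 without column 1 of MUTYH-/ and 0.0423 without its column 2. Bins with 3 or more G4 motifs, a class added to these 7 later, had 1.30, 1.38 and 1.43 in OGG1-/ and 1.36, 0.961 and 1.19 in MUTYH-/ (difference 0.199, exact permutation p = 0.2; after GC centering 0.00959, p = 0.9). Their OG reads alone did not overlap, with means of 0.926 and 0.841 times the column mean (exact permutation p = 0.1). Exons had means of 1.29 and 1.23 (exact permutation p = 0.3) and bins within 1 Mb of a chromosome end 1.32 and 1.25 (p = 0.6). Introns, which make up 55.8 % of the bins, had 1.027 and 1.028 (difference -0.00129, exact permutation p = 0.7), and intergenic bins 0.924 and 0.931 (p = 0.5). These 2 classes together make up most of the bins.

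**Figure D3:**
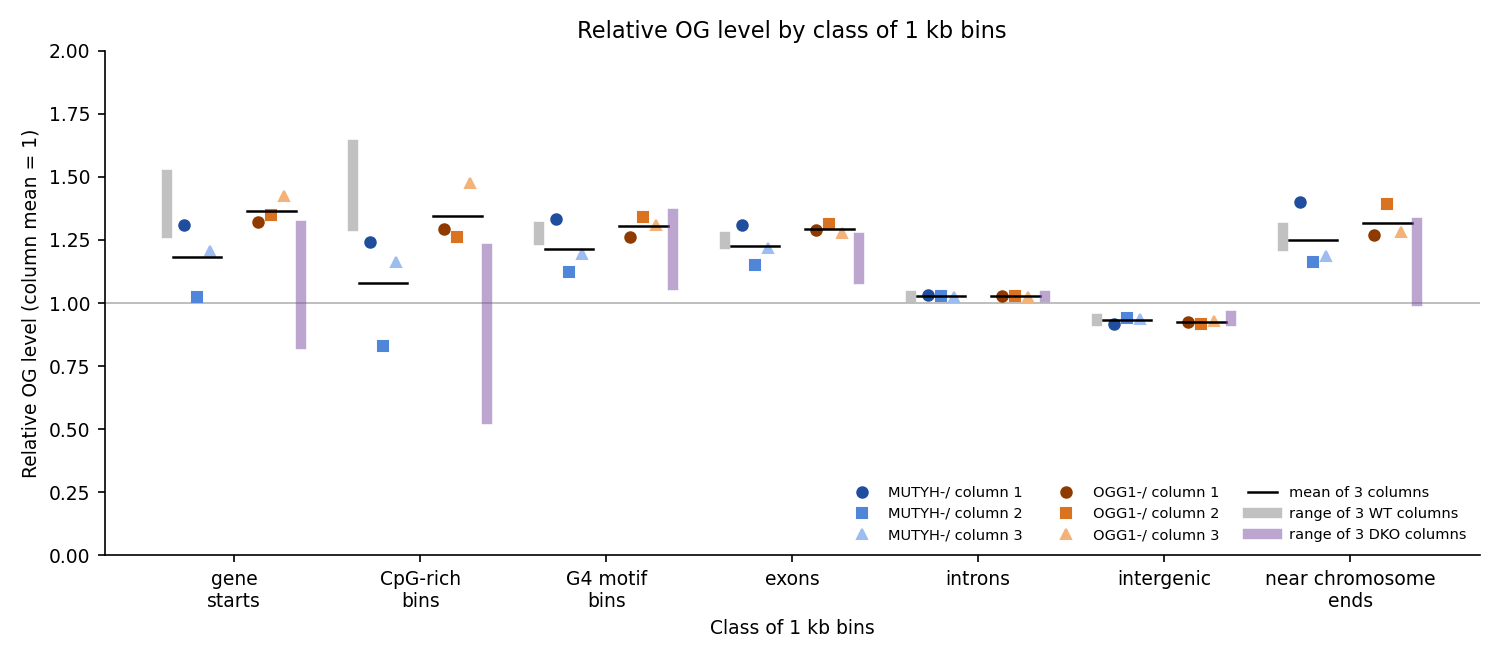
Relative OG level (y axis, 1 is the mean of a column) of 7 classes of 1 kb bins, 1 point per column with the mean of the 3 columns as a line. Grey and purple bars give the range of the WT and DKO columns. In gene starts and CpG-rich bins the OGG1-/ points lie above the MUTYH-/ points, with MUTYH-/ column 2 lowest at 1.02 and 0.831.

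By chromosome, the knockouts differed by at most 0.0667. This was on chromosome 19, the richest in GC, where OGG1-/ had 1.38, 1.60 and 1.42 and MUTYH-/ 1.61, 1.34 and 1.25 (exact permutation p = 0.6). OGG1-/ was higher on 11 chromosomes and lower on 12. Chromosome 7 was the only one without overlap, with 0.985, 0.990 and 0.984 in OGG1-/ and 0.993, 0.9989 and 0.991 in MUTYH-/, a difference of -0.00813 (exact permutation p = 0.1, adjusted over 23 chromosomes p = 0.726). Chromosome 15 had the highest or second highest level in every column, from 1.45 to 1.56, and input reads of 1.40 to 1.42 times the column mean, so that its DNA gave more reads in both knockouts alike.

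The genes of the repair pathway that the knockouts interrupt were followed through the 100 kb window that holds their start. Of 25 base excision repair genes, 0 windows passed the adjusted threshold, 1 did not overlap with OGG1-/ higher and 0 did not overlap with OGG1-/ lower, beside 3.99 % and 4.89 % of all windows. Their median difference was -0.000335, beside -0.00348 over all windows. Of 25 oxidative stress response genes, 0 windows passed, 0 lay without overlap in either direction, and the median difference was 0.0189. Both lists lie in windows with more GC (medians of 46.2 and 46.1 %) than the typical window (39.8 %). In the 1 kb bins of the gene starts, 0 genes of either list passed the adjusted threshold.

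The glycosylase genes themselves had similar levels in both knockouts. The *OGG1* window (chromosome 3, 9700001 to 9800000) had 1.47, 2.16 and 1.68 in OGG1-/ and 1.61, 1.43 and 1.76 in MUTYH-/. Its difference was 0.169 with a 95 % interval of ±0.404 (limma, adjusted p = 1). The *MUTYH* window (ENSG00000132781.21, chromosome 1, 45300001 to 45400000) had 1.30, 1.63 and 1.83 in OGG1-/ and 1.75, 1.36 and 1.16 in MUTYH-/, with a difference of 0.167 and an interval of ±0.402 (limma, adjusted p = 1). The columns of the knockouts were interleaved in both windows. In the 1 kb bin of the *MUTYH* start, whose 59 CpGs exceed the 56 of the *OGG1* start, the level ran from 0.338 to 4.13 in OGG1-/ and from 0.428 to 1.44 in MUTYH-/. In that of *OGG1* it was 2.42 to 2.58 and 2.09 to 3.57.

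Among the other repair genes, the differences of the windows were largest at *NEIL1*, *MPG* and *FEN1*. *NEIL1* encodes a glycosylase for oxidized bases, and its window had 3.25, 3.42 and 3.38 in OGG1-/ and 3.54, 2.90 and 2.57 in MUTYH-/ (difference 0.348, limma adjusted p = 1). The input there was 2.34 to 2.47 times the column median. The gene lies on chromosome 15, whose input as a whole was 1.40 to 1.42 times the column mean, so the window lies above its chromosome. *MPG*, the glycosylase for alkylated purines, had 2.53, 2.68 and 2.01 against 2.60, 1.97 and 1.81. *FEN1*, the nuclease that removes flaps in long-patch repair, had 1.87, 2.26 and 1.92 against 2.17, 1.61 and 1.55. In each of these windows column 1 of MUTYH-/ was the highest of its genotype and lay among or above the OGG1-/ columns. The window without overlap was that of *POLB*, the polymerase that fills the gap, named after its values were seen, with 1.37, 1.498 and 1.26 in OGG1-/ and 1.25, 1.26 and 1.17 in MUTYH-/ (difference 0.153, limma adjusted p = 1).

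Among the stress response genes, *SRXN1* and *PRDX2* had differences among the largest of their list. *SRXN1*, which restores over-oxidized peroxiredoxins, had 1.79, 1.56 and 1.85 in OGG1-/ and 1.67, 1.07 and 1.28 in MUTYH-/ (difference 0.397 ± 0.362 as the 95 % interval, limma adjusted p = 1). *PRDX2* is a peroxiredoxin that reduces peroxides, and it had 1.75, 2.17 and 1.87 against 2.28, 1.59 and 1.29. Column 1 of MUTYH-/ was again its highest column in both windows, and both lie above 50 % GC.

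Since no window was called, windows from those with the smallest p and without overlap are given, and none of them passes. On the side lower in OGG1-/, these windows were AT-rich. The window of *CYLC2*, a gene of the sperm head, on chromosome 9 (102900001 to 103000000) had 0.413, 0.177 and 0.198 in OGG1-/ and 0.641, 0.771 and 0.663 in MUTYH-/ (limma adjusted p = 0.696). A window without a protein-coding gene on chromosome 18 (44000001 to 44100000) had 0.459, 0.238 and 0.400 against 0.911, 0.807 and 0.988, with a difference of -0.536. A window near the homeobox gene *TGIF2LX* on chromosome X (89800001 to 89900000) had 0.282, 0.264 and 0.368 against 0.512, 0.697 and 0.575. The lowest WT column had 0.377, 0.608 and 0.568 in these 3 windows, above all OGG1-/ columns except 1 in the *CYLC2* window. The last pair were a window with the milk and saliva protein genes *CSN1S1*, *CSN2* and *STATH* (difference -0.249) and one in *STXBP4* (difference -0.380). These 5 windows held 33.8 to 35.6 % GC, below the mean of 38.1 % of the windows lower in OGG1-/ without overlap and the mean of 40.9 % of all windows.

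On the side higher in OGG1-/, the windows with the smallest p were mostly richer in GC. A window between protein-coding genes on chromosome 20 (48400001 to 48500000), with *PREX1* nearest, had 1.61, 1.47 and 1.47 in OGG1-/ and 1.08, 0.943 and 1.09 in MUTYH-/ (difference 0.476, interval ±0.248, limma adjusted p = 1). The window of *ESPNL*, *KLHL30* and *ERFE*, the last encoding the iron regulator erythroferrone, on chromosome 2 (238100001 to 238200000) had 1.75, 2.002 and 1.84 against 1.33, 1.45 and 1.19. The window of *GTF2H4*, a subunit of the repair factor TFIIH, with *VARS2* and mucin genes on chromosome 6 (30900001 to 31000000) had 1.54, 1.61 and 1.56 against 1.25, 1.03 and 0.892. WT reached from 1.23 to 1.53, from 1.28 to 1.71 and from 1.41 to 1.61 in these 3 windows, so that OGG1-/ lay above WT in the window of *ESPNL* and within or near it in the others.

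The remaining 3 windows of this side were those of the class II antigen genes *HLA-DRB5* and *HLA-DRB1*, of the sperm flagellum gene *TTC29*, and of *NNMT* and *ZBTB16*. The *HLA-DRB* window had low levels of 0.414, 0.451 and 0.552 in OGG1-/ and 0.346, 0.336 and 0.281 in MUTYH-/, with an input of 0.446 to 0.525 times the column median over the 6 columns. These genes have near-identical copies, and whether reads of this window can be placed was not tested. The *TTC29* window had 0.648, 0.707 and 0.717 against 0.376, 0.432 and 0.521. That of *NNMT*, a methyltransferase for nicotinamide, had 1.47, 1.35 and 1.49 against 1.005, 0.994 and 1.000, the smallest spread of MUTYH-/ columns among the windows named here. Windows higher in OGG1-/ without overlap had a mean of 43.6 % GC.

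**Figure D4:**
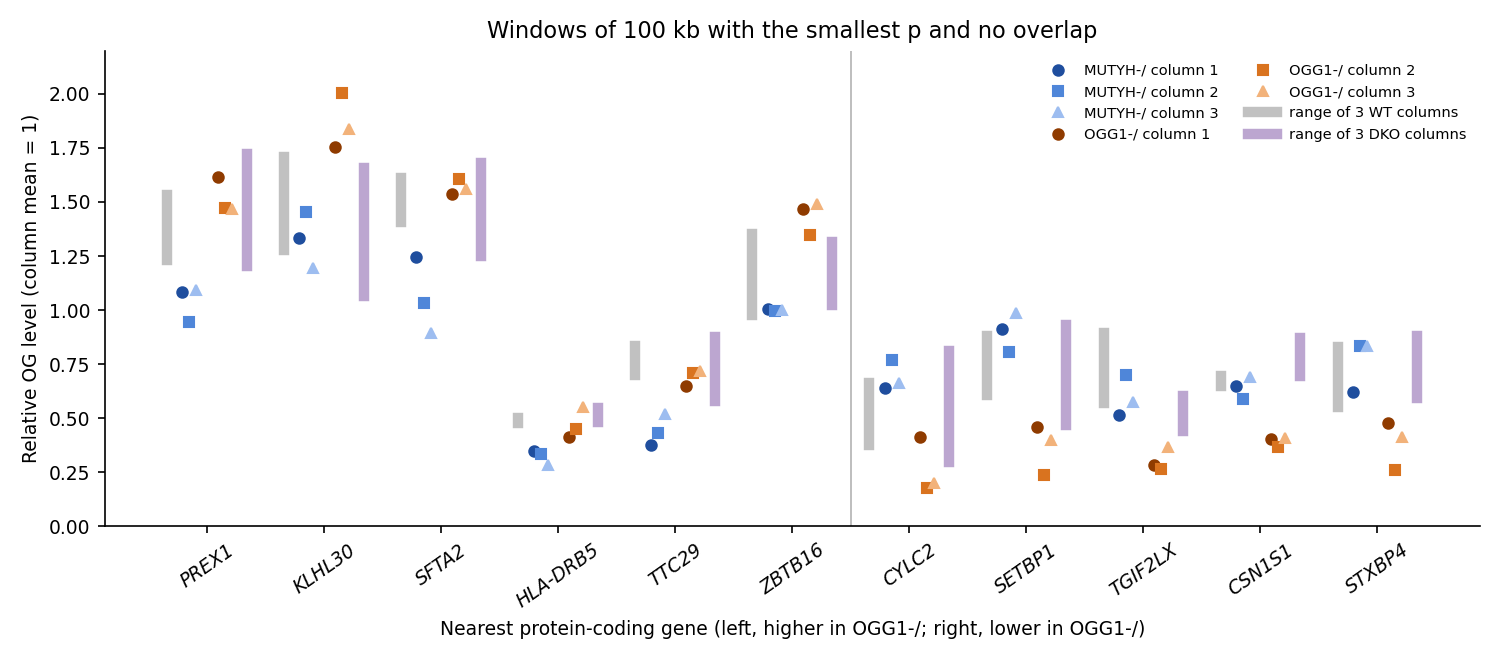
Relative OG level (y axis, 1 is the mean of a column) in the named windows, which are among those with the smallest p per direction in the set of windows whose columns do not overlap, named by the nearest protein-coding gene. Points are single columns, and grey and purple bars the ranges of WT and DKO. None passes the adjusted threshold; in the *CYLC2* window the OGG1-/ columns lie between 0.177 and 0.413, and those of MUTYH-/ between 0.641 and 0.771.

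Single bins of 1 kb were ranked in the same way, and none of the 5 per direction passes the adjusted threshold (limma adjusted p of 0.856 or more). Stretches of 150 bases from 3 of them are shown to let the reader see what sequence lies there. They are the first bin outside an exon on either side, and the *SERINC2* bin, which was chosen after its sequence was seen because it consists of guanine repeats. Runs of 3 or more G, or of 3 or more C (G on the other strand), are in capitals, and the stretch with most letters in such runs was taken from GRCh38, plus strand. Over all 1 kb bins, the median was 18 such runs and the 95th percentile 42.
*SERINC2* intron, chr1:31431750-31431899, higher in OGG1-/: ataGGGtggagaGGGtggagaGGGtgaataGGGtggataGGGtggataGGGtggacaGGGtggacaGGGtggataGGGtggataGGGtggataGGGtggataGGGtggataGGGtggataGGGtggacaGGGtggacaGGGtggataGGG
*AUTS2* intron, chr7:69613412-69613561, higher in OGG1-/: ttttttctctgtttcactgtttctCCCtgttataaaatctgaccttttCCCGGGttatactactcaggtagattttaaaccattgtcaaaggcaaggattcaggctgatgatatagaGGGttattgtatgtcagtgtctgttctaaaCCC
near *VCAM1*, chr1:100700625-100700774, lower in OGG1-/: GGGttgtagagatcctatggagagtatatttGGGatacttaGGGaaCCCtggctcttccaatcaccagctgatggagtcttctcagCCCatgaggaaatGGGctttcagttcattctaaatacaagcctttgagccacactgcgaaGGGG

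The *SERINC2* bin (chromosome 1, 31431001 to 31432000) holds 55 such runs and 8 G4 motifs, the *AUTS2* bin 16 runs and the bin near *VCAM1* 19. In the *SERINC2* bin the OG reads were 91, 113 and 120 in OGG1-/ and 87, 50 and 48 in MUTYH-/, beside 95 to 102 and 96 to 118 input reads. Its relative OG level was thus 1.79, 5.56 and 4.05 against -0.0368, -1.95 and -4.16 (limma adjusted p = 0.995). The *AUTS2* bin (chromosome 7, 69613001 to 69614000) had 48, 53 and 50 OG reads in OGG1-/ and 29, 6 and 21 in MUTYH-/, and its input went the other way with 34, 24 and 21 reads against 57, 43 and 44. In the bin near *VCAM1*, an adhesion receptor gene (chromosome 1, 100700001 to 100701000), OGG1-/ had 32, 11 and 47 OG reads and 69, 44 and 87 input reads, and MUTYH-/ 52, 29 and 38 OG reads and 32, 17 and 31 input reads. In the last 2 bins, OG and input reads departed in opposite directions, and the subtraction adds both departures. WT spanned from -1.66 to 1.26 in the *AUTS2* bin and from -0.484 to 4.07 in the bin near *VCAM1*.

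The other bins higher in OGG1-/ lie in an exon of *MTMR3* (difference 5.86), in an intron of *TRABD2A* (6.09) and on chromosome 12 at 62442 bp from *GRIN2B* (5.43). Those lower lie between genes on chromosomes X, 15 and 16, with *HTR2C*, *PDE8A* and *CDH11* nearest, and in an intron of *DAPK2*, with differences from -5.36 to -4.65. Each of these 10 bins had a mean below 0 in 1 of the knockouts. The GC content was 36.4 to 53.3 % in the 5 bins higher in OGG1-/ and 32.2 to 40.6 % in the 5 lower.

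Many of the largest differences between windows lay where the input departed in single columns. The input reads recovered from the table, which hold no OG enrichment, showed 10 such regions of at least 2 windows in which a column departed by more than 0.5 on the log2 scale from the median of all 12 columns. This comparison was added after the values were seen. Of the 20 windows with the largest difference between the knockouts, 10 held a step of the input in at least 1 of the 6 columns, whereas 0.148 % of all windows held one. The regions were not the same in the columns of a genotype, since columns 1 and 2 of each knockout shared theirs and column 3 had others.

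In MUTYH-/, the region at 300001 to 1000000 on chromosome 19 had an input of 2.15, 2.01 and 1.03 times the column median, and 0.991 to 1.21 in OGG1-/. It holds 29 protein-coding genes, among them *PTBP1*, a regulator of splicing, and *POLRMT*, the mitochondrial RNA polymerase. Its relative OG level was 4.07, 2.75 and 1.57 in MUTYH-/ and 1.73, 2.11 and 1.92 in OGG1-/, so that 2 columns of MUTYH-/ lay above all others and the third below all. A region with *CBLB*, a ubiquitin ligase, on chromosome 3 (105800001 to 106200000) had inputs of 1.57, 1.59 and 0.932 and OG levels of 1.06, 1.44 and 0.691 in MUTYH-/, against inputs of 0.905 to 0.933 and OG levels of 0.649 to 0.807 in OGG1-/. In the same 2 columns, input was low at 181300001 to 181500000 on chromosome 4 (0.273 and 0.293) and at 78600001 to 78800000 in *WWOX* on chromosome 16 (0.00789 and 0.00726), a gene of a common fragile site. In *WWOX*, columns 1 and 2 of OGG1-/ also had little input (0.327 and 0.324), while the third columns had 0.838 and 0.790.

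In OGG1-/, columns 1 and 2 had an input of 1.83 and 1.85 at 89800001 to 90400000 on chromosome 10, a stretch without protein-coding genes, where the OG level was 1.46, 1.30 and 0.874 in OGG1-/ and 0.708 to 0.853 in MUTYH-/. Column 3 of OGG1-/ had an input of 0.533 in another part of *WWOX* and of 2.26 in a region with *TRAPPC9*, *CHRAC1* and *AGO2* on chromosome 8. In MUTYH-/, column 3 had 1.85 in a region with *ST18*, *ALKAL1* and *RB1CC1* on chromosome 8 and 1.31 in a region of chromosome 15 where the other 5 columns had 2.21 to 2.34.

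In all 10 regions, the columns whose input departed had OG levels that departed the same way. None of their windows passed the adjusted threshold (limma). Without the 42 windows that hold a step, 0 of 28353 windows were called, as with them.

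**Figure D5:**
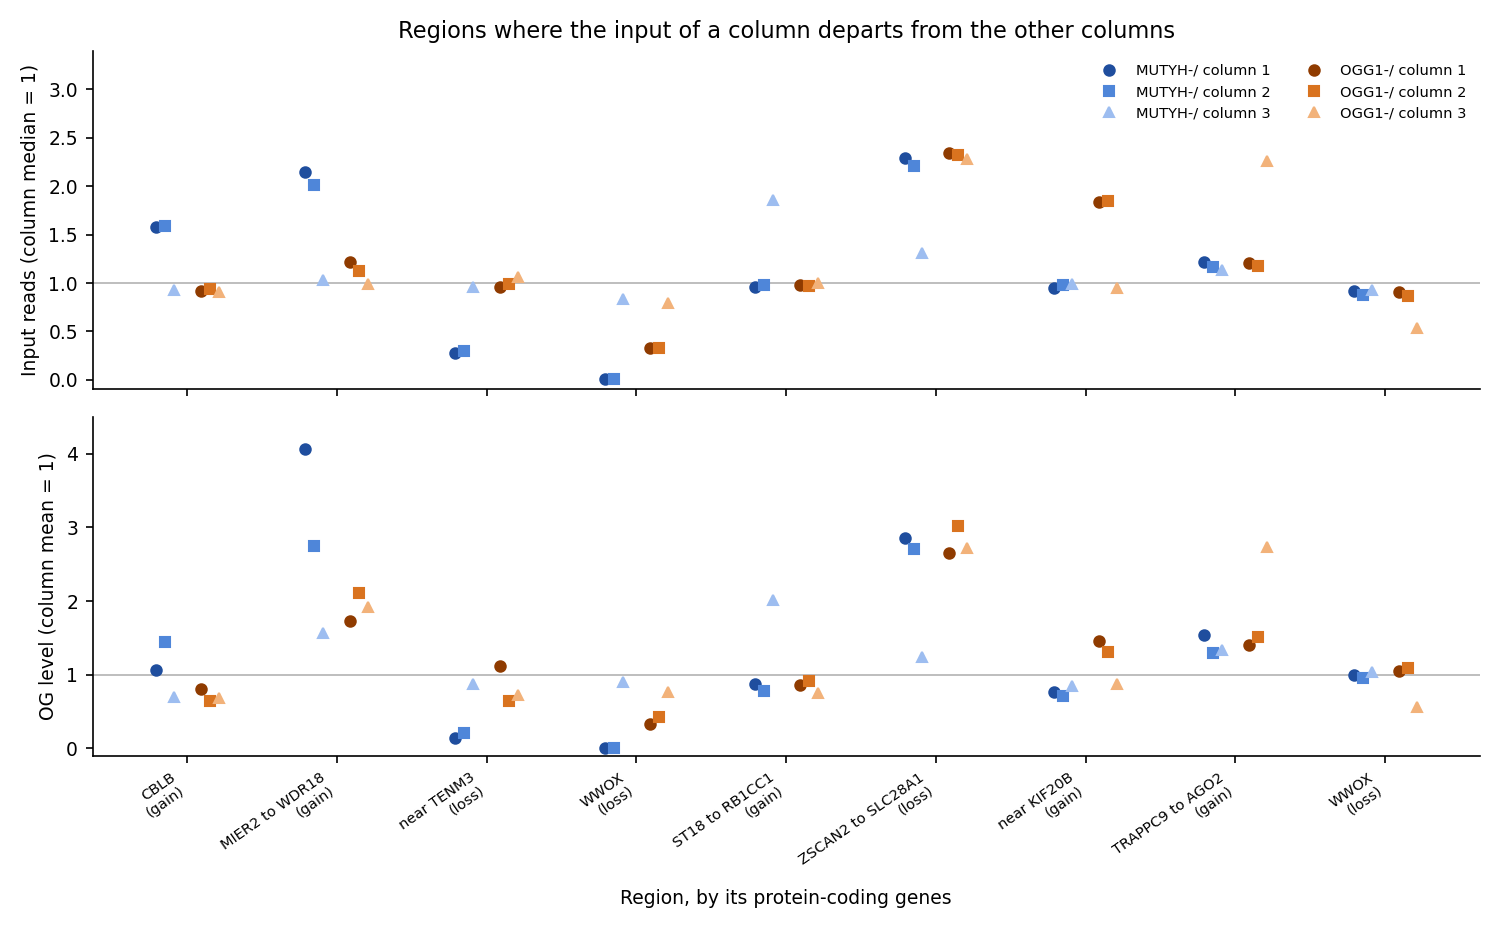
Input reads (upper panel, y axis, 1 is the median of a column) and relative OG level (lower panel, 1 is the mean of a column) in regions where the input of at least 1 of the 6 columns departs from the median of all columns, named by their protein-coding genes. In each region where a knockout departs, its columns 1 and 2 lie together and column 3 apart, for example at 2.15, 2.01 and 1.03 in the input of MUTYH-/ in the region from *MIER2* to *WDR18*, and the OG level follows.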

How the data were processed

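The deposited table gives a score per 1 kb bin of GRCh38, which the authors obtained as OG reads of the bin minus its input reads after signal extraction scaling (SES). Per the labels, cutadapt 2.8, Bowtie2 2.3.5.1, SAMtools, bedtools and edgeR 3.42.4 were among the tools. OG and input reads were recovered here as whole numbers in all but at most 14 bins of a column (tolerance 1e-09). Columns 1 to 3 of OGG1-/ and of MUTYH-/ were each divided by their mean over 2835235 bins, and 30461 bins at 0 in all 6 columns were not tested. Windows of 100 kb with at least 50 bins and single bins were fitted with limma 3.58.1 (R 4.3.3, moderated variances with a trend, Benjamini-Hochberg adjustment). The fit was also run on simulated data with the same normal spread in every window or bin. The spread of the real windows and bins varies, so that run does not show how the fit behaves on them. Chromosomes, GC classes and classes of bins were compared with exact two-sided permutation tests. Genes came from GENCODE, and G4 motifs from the sequence. edgeR was not used here, because a score is not a count.

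The members and gene lists were chosen with earlier results of these data known. Named were the 6 windows and 5 bins per direction with the smallest p and no overlap, *OGG1*, *MUTYH* and the 3 genes per list with the largest window difference, some of which are not reported here. Alternatives changed scale, scaling, GC centering, window size, filter, model and columns.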

Additional observations from a re-analysis of the deposited data

How the results depend on the processing

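The count of 0 windows with an adjusted p under 0.05 was also found on the log2 scale, with median scaling, with all 12 columns, with windows of 50 kb or 1 Mb, without a minimum of bins and without the variance trend. Centering within GC strata gave 2 windows, both in the region of chromosome 19 with a step of the input in MUTYH-/. The columns are numbered, but columns of the same number deviated together in 1 of 3 pairs (r = -0.258, -0.186 and 0.122), so the number was not taken as a pairing. A replicate block by column number gave 0 windows and 0 bins, and the block with GC centering 6 windows, all with a step of the input. Leaving out 1 column gave 0 to 6 windows: 6 without MUTYH-/ column 1, and 1 without MUTYH-/ column 3, in *WWOX*. At an unadjusted p of at most 0.01, the 180 windows became 425 at 50 kb, 0 at 1 Mb and 101 to 923 when a column was left out, with 923 without MUTYH-/ column 1. With the log2 ratio of OG over input, chosen after the data were seen, 0 windows were called with or without GC centering.

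For 1 kb bins, log2(value + 1) called 46 bins and log2(value + 5) 4 bins. Values below 0 were set to 0 on these scales. Of the 46, 21 had columns that do not overlap, beside 5.04 % of all bins tested with OGG1-/ higher and 4.96 % with OGG1-/ lower. Since the 46 were picked by p, their share without overlap is no separate result. They were bins of high level, with a median relative OG level of 9.23. At a p of at most 0.01, the 26089 bins became 6575 and 9482. On the relative scale, leaving out a column gave 0 bins for each of the 6 columns, and no column was left out on the log2 scales.

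The mean value divided by OG reads per bin, added after the data were seen, reversed its difference to -0.00929, and leaving out a column gave 0.275 to 1.197. After GC centering, the differences were -0.00354 on chromosome 17, -0.0220 on chromosome 19, -0.0135 on chromosome 22, 0.000725 in intergenic bins and -0.0125 near chromosome ends. In steps of 1 % GC, also added later, they were -0.000552 for G4 motif bins, 0.000927 for intergenic bins and -0.0161 near chromosome ends, and 0.0145 at gene starts and 0.0214 in CpG-rich bins. Leaving out a column gave 0.104 to 0.248 at gene starts, 0.141 to 0.345 in CpG-rich bins, -0.00774 to 0.172 on chromosome 19 and -0.00331 to 0.000433 in introns. The cause of these changes was not tested. With 3 columns against 3, no exact test could pass 0.05.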

Other observations

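Outside the regions with a step of the input, the largest difference between the knockouts lay in a window of chromosome 1 (228600001 to 228700000) that holds no protein-coding gene. Its input also differed, at 1.77, 1.54 and 1.31 times the column median in OGG1-/ and 1.38, 1.23 and 1.25 in MUTYH-/. WT columns had relative OG levels of 4.32 to 5.77 there and DKO columns of 0.801 to 2.61. The level was 3.62, 3.001 and 4.32 in OGG1-/ and 2.88, 1.91 and 3.37 in MUTYH-/, with a difference of 0.927 and overlapping columns (limma adjusted p = 1). The next were the window of *ITGA11*, a collagen receptor gene on chromosome 15, with 3.24, 3.404 and 3.33 in OGG1-/ and 3.08, 2.33 and 2.23 in MUTYH-/, and that of *HDAC1* and *MARCKSL1* on chromosome 1, with 1.99, 2.35 and 1.82 against 1.78, 1.21 and 1.26. Neither of the last 2 overlapped, and each had an adjusted p of 1 by limma. Over the 6 columns, the input was 2.11 to 2.28 times the column median in the *ITGA11* window. It was 1.13 to 1.28 times the column median in the window of *HDAC1* and *MARCKSL1*. These windows were named after their values were seen.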
